A study of Mus musculus with 16 samples.

Results

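The genes described here encode receptors and ligands of neurotrophic factors, and they were taken by gene symbol from the deposited count table. They were the ligands Bdnf and Gdnf, the neurotrophin receptors Ntrk2, Ntrk3 and Ngfr, the GDNF receptor genes Ret and Gfra1, and the CNTF receptor genes Cntfr and Lifr, 9 of 46320 genes. All 9 passed the filter on low counts, which left 19964 genes. The 16 RNA-seq libraries came from mouse motoneurons of embryonic day 13, isolated from lumbar spinal cord and grown in microfluidic chambers that separate axons from somata and dendrites. The +/+ motoneurons were wildtype, and the Hnrnpr-/- motoneurons carried a CRISPR/Cas9 deletion of exons 1 to 5 in the gene of the RNA-binding protein hnRNP R on a C57Bl/6 background. Each genotype gave 4 somatodendritic and 4 axonal libraries. In every group the cells had been enriched by panning with an antibody to p75NTR, the protein made from Ngfr. Every group also received CNTF at 5 ng/ml in both compartments and BDNF at 20 ng/ml in the axonal compartment only, so that exposure to BDNF and the compartment cannot be told apart.

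Neurotrophic factors are secreted proteins that support survival and axon growth of neurons. BDNF binds the receptor tyrosine kinase TrkB, encoded by Ntrk2, and neurotrophin-3 binds TrkC, encoded by Ntrk3, while p75NTR binds all neurotrophins and their precursors. GDNF binds GFRα1, which is anchored to the membrane and signals with the receptor tyrosine kinase Ret. CNTF binds the anchored receptor subunit encoded by Cntfr, which signals with the transmembrane partners LIFR and gp130, the product of Il6st. Motoneurons are a classical target of all these factors, which are made by muscle, Schwann cells and other cells along the nerve.

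Total counts were 22024923 to 34864151 per library. Hnrnpr, read as the check of the labels, had 178 to 241 CPM (counts scaled to library size) in the +/+ somatodendritic libraries and 0.545 to 1.16 CPM in the Hnrnpr-/- ones. In axons it had 120.0 to 422 CPM in +/+ and 0.597 to 1.10 CPM in Hnrnpr-/- libraries. The 7 markers of motoneurons summed to only 13.05 to 29.9 CPM in the +/+ somatodendritic libraries, 16 to 22.1 in the Hnrnpr-/- ones, 3.90 to 16.4 in +/+ axons and 2.85 to 9.62 in Hnrnpr-/- axons. Among them Mnx1, a homeobox gene of motoneurons, was at 0 in every library of the first 3 of these groups. The 7 markers of astrocytes and radial glia summed to 1382 to 2151 CPM in the somatodendritic libraries of +/+ and 1606 to 2679 of Hnrnpr-/-. In axons they summed to 2584 to 5625 CPM in +/+ and 2407 to 4606 in Hnrnpr-/- libraries. The 5 markers of muscle cells and pericytes summed to 53.4 to 454 CPM in the somatodendritic libraries of +/+ and 69.1 to 277 of Hnrnpr-/-, against 1397 to 11698 in +/+ axons and 2334 to 10427 in Hnrnpr-/- axons. Markers of other cells were thus present beside low levels of the motoneuron markers. In bulk samples such as these, fewer cells of a type and less RNA per cell cannot be told apart. Axonal libraries were also amplified with more PCR cycles, which cannot be told apart from the compartment.

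In +/+ motoneurons the receptor genes were ordered per exon length. Gfra1 was the highest in the somatodendritic compartment with 31.4 ± 6.07 CPM per kb (SD, n = 4). Ntrk2 with 13.3 ± 0.763, Ret with 12.6 ± 1.32 and Cntfr with 11.5 ± 2.30 CPM per kb followed, and the ranges of these neighbours overlapped. Lower levels per kb were found for Ntrk3 at 3.41 ± 0.128, Lifr at 2.69 ± 0.187, Bdnf at 1.797 ± 0.191 and Ngfr at 1.596 ± 0.148, of which only Bdnf and Ngfr overlapped as neighbours. Gdnf was the lowest with 0.177 ± 0.102 CPM per kb. The somatodendritic order in Hnrnpr-/- motoneurons was the same for all 9 genes, from Gfra1 with 26.2 ± 2.17 to Gdnf with 0.103 ± 0.0551 CPM per kb (SD, n = 4), although Ntrk3 and Lifr also overlapped there.

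In +/+ axons the order was different. Ntrk2 came first with 10.2 ± 2.23 CPM per kb, and Bdnf stood second with 7.81 ± 4.94, before Gfra1 with 5.75 ± 3.59 (SD, n = 4). Ranges of neighbours overlapped throughout except between Ntrk3, with 1.53 ± 0.656, and Gdnf, with 0.257 ± 0.111 CPM per kb. In Hnrnpr-/- axons Ntrk2 again came first with 10.2 ± 3.23, followed by Gfra1 with 6.35 ± 3.35 and Bdnf with 5.84 ± 2.24 CPM per kb, and all neighbours overlapped. These levels divide by the exon length in the count table, which is 29517 bases for Ntrk2 and 23979 for Ntrk3 against 3409 to 10755 for the other genes. Both genes have full-length and truncated transcripts, and counts per gene do not separate them.

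The scatter between replicates differed between compartments. The coefficient of variation of the 9 genes had a median of 10.5% in the +/+ and 12.5% in the Hnrnpr-/- somatodendritic libraries, but 62.4% in +/+ and 46.0% in Hnrnpr-/- axons.

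**Figure D1:**
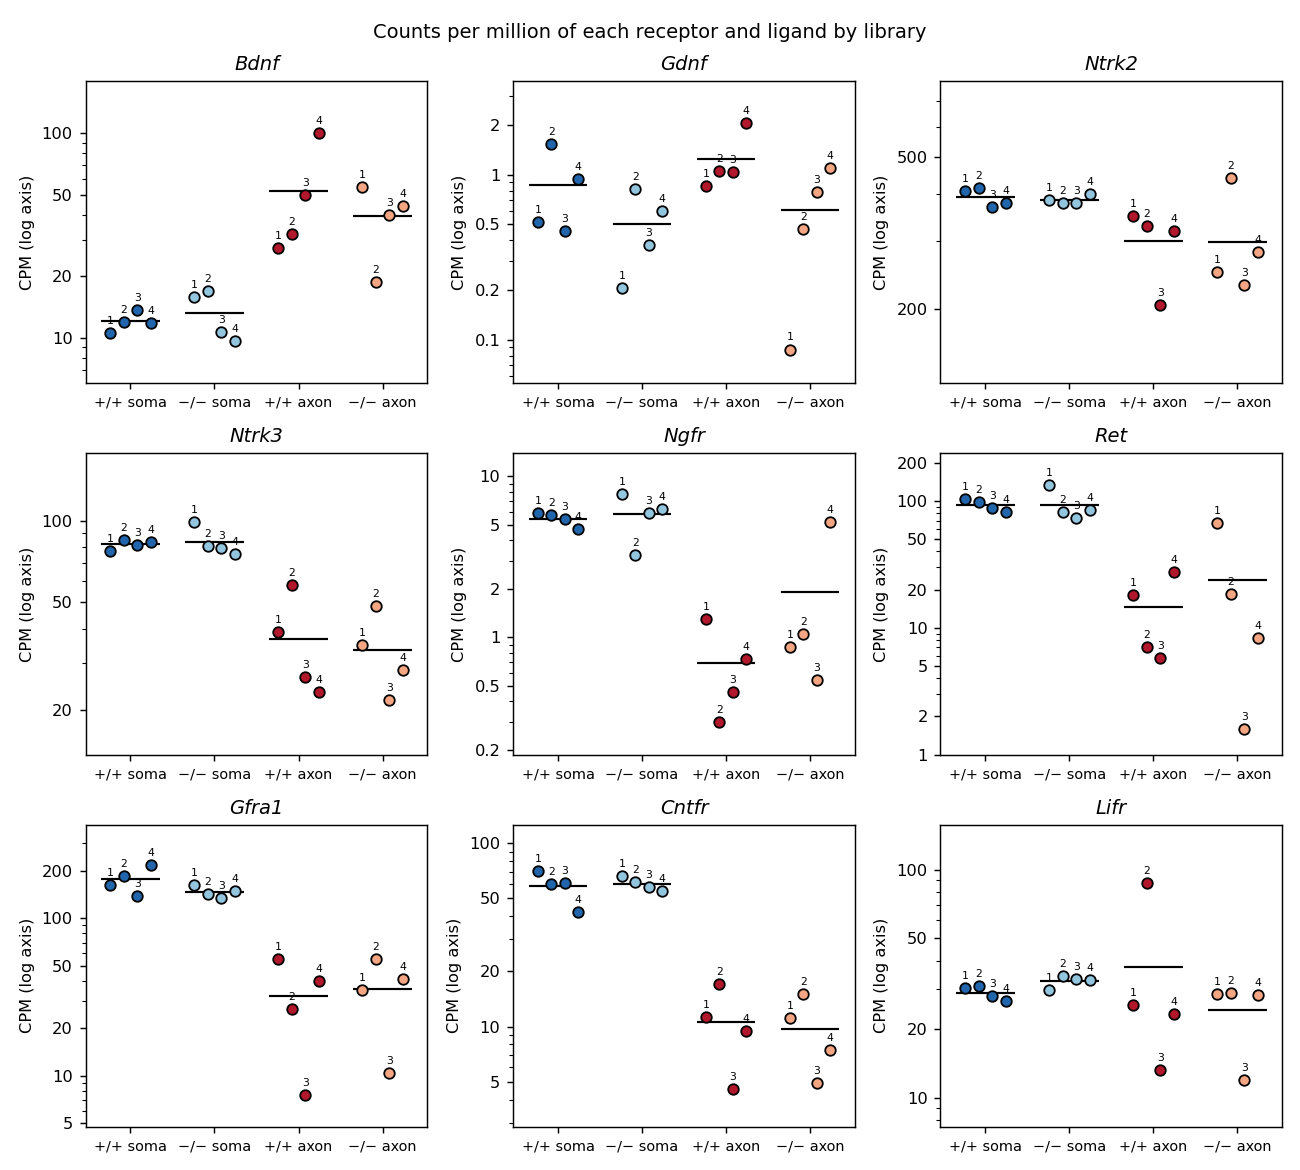
Levels in CPM (log axis) of the 9 genes in each library, with the replicate number above each point and the group mean as a line. Bdnf was above the somatodendritic range in all axonal libraries of the same genotype, whereas Ntrk3, Gfra1, Ret and Cntfr were below it.

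The first question was how these transcripts were distributed between axons and somata. In +/+ motoneurons 6 of the 9 genes had an adjusted p under 0.05 for axons against somata (edgeR's quasi-likelihood test, adjusted over all tested genes by Benjamini-Hochberg). Bdnf rose in axons, as did 27.7% of all genes tested, and Ntrk3, Ngfr, Gfra1, Ret and Cntfr fell, as did 25.8%. The median log2 fold change of the 9 genes was -1.16, against 0.07 for all genes tested. In Hnrnpr-/- motoneurons 4 of the 9 passed, with Bdnf higher, as were 26.8% of all genes, and Ntrk3, Gfra1 and Cntfr lower, as were 26.0%. There the median was -1.33 for the 9 genes and -0.0026 for all genes. Under every alternative model and every omission of a library the same 6 genes passed in +/+ motoneurons.

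Bdnf, which encodes the ligand of TrkB, was the only one of the 9 genes that passed the test with a higher level in axons. It lies on chromosome 2 at 109505045 to 109557388 on the plus strand (GRCm39, as are all positions given). Its somatodendritic levels were 10.6, 12.02, 13.7 and 11.9 CPM in +/+ replicates 1 to 4, and its axonal levels were 27.6, 32.0, 50.1 and 100.004 CPM. All +/+ axonal libraries were above all somatodendritic ones. The difference was 4.34-fold, or 2.12 ± 0.39 on the log2 scale (SE, n = 4 per group, adjusted p = 0.00208, edgeR). This change stood at the 90.5th percentile of the log2 fold changes of all genes tested. In motoneurons lacking hnRNP R, Bdnf had 15.8, 17.0, 10.6 and 9.61 CPM in the somatodendritic and 54.5, 18.7, 39.8 and 43.9 CPM in the axonal libraries. The ranges were again apart, with replicate 2 of the axons close to the highest somatodendritic value, and the log2 fold change was 1.57 ± 0.34 (SE, n = 4, adjusted p = 0.00625, edgeR). In GENCODE M39 the exons of Bdnf share 1028 bases with Gm45346 on the opposite strand. The library kit does not mark strand, so reads of these genes cannot be told apart there.

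Gdnf, encoding the ligand of GFRα1 and Ret, was close to the limit of detection. It lies on chromosome 15 at 7839529 to 7867061 on the plus strand. It had 11 to 34 counts in +/+ somatodendritic and 25.3 to 67 counts in +/+ axonal libraries. These corresponded to 0.513, 1.53, 0.456 and 0.939 CPM in somata and to 0.851, 1.05, 1.04 and 2.05 CPM in axons. The groups overlapped, and the log2 fold change of 0.54 ± 0.51 did not pass the test (SE, n = 4, adjusted p = 0.389, edgeR). Without hnRNP R, Gdnf ranged from 0.206 to 0.823 CPM in somata and from 0.0872 to 1.09 CPM in axons. The lowest of these, axonal replicate 1, rested on 3 counts, and the log2 fold change between the compartments was 0.27 ± 0.71 (SE, n = 4, adjusted p = 0.764, edgeR).

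Ntrk2, the TrkB gene, was the member with the most reads in every group and lies on chromosome 13 at 58954286 to 59281784 on the plus strand. Its +/+ levels were 408, 415, 369 and 378 CPM in somata and 349, 330.2, 204 and 320.1 CPM in axons. All axonal values were below all somatodendritic ones, with replicate 3 the lowest by far. The log2 fold change of -0.38 ± 0.19 did not pass the test (SE, n = 4, 95% interval -0.80 to 0.04, adjusted p = 0.110, edgeR). Hnrnpr-/- levels were 385, 378, 379 and 400.1 CPM in somata and 249, 439, 230.3 and 281 CPM in axons. Axonal replicate 2 was above all somatodendritic libraries, and the log2 fold change was -0.36 ± 0.21 (SE, n = 4, adjusted p = 0.182, edgeR). Without this replicate it was -0.61 with an adjusted p of 0.0152.

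Ntrk3, the TrkC gene, lies on chromosome 7 at 77825711 to 78228865 on the minus strand and fell in axons of both genotypes. In +/+ motoneurons it had 77.7, 84.7, 81.6 and 83.4 CPM in somata and 38.8, 58.1, 26.6 and 23.4 CPM in axons. The somatodendritic values differed little, and no axonal library reached them. The log2 fold change was -1.16 ± 0.28 (SE, n = 4, adjusted p = 0.00674, edgeR), that is 2.23-fold lower. The Hnrnpr-/- libraries had 98.9, 80.8, 79.4 and 75.4 CPM in somata and 34.8, 48.4, 21.9 and 28.2 CPM in axons. These groups did not overlap either, and the log2 fold change was -1.33 ± 0.25 (SE, n = 4, adjusted p = 0.00342, edgeR). Exons of Ntrk3 share 388 bases with Gm9885 on the opposite strand.

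Ngfr, which encodes the antigen used for panning, lies on chromosome 11 at 95459644 to 95478524 on the minus strand. Its +/+ levels were 5.88, 5.72, 5.42 and 4.74 CPM in somata and 1.29, 0.297, 0.455 and 0.734 CPM in axons. The axonal values rested on 11 to 38 counts and were all below the somatodendritic ones. Ngfr was 7.83-fold lower in +/+ axons, the largest decrease among the 9 genes, with a log2 fold change of -2.97 ± 0.45 (SE, n = 4, adjusted p = 0.000902, edgeR). Hnrnpr-/- levels were 7.78, 3.25, 5.95 and 6.26 CPM in somata and 0.872, 1.06, 0.540 and 5.21 CPM in axons. Axonal replicate 4, with 157 counts, lay within the somatodendritic range and far above the other axonal libraries. The log2 fold change was -1.60 ± 0.70 and did not pass the test (SE, n = 4, adjusted p = 0.0815, edgeR). With the replicate number as a block it was -2.10 with an adjusted p of 0.0285, and without axonal replicate 4 it was -2.82 with an adjusted p of 0.00456.

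Ret, the signalling receptor of the GDNF family, lies on chromosome 6 at 118128709 to 118174705 on the minus strand. In +/+ motoneurons it had 103, 97.3, 87.3 and 82.0 CPM in somata and 18.2, 7.004, 5.82 and 27.4 CPM in axons. The groups were far apart, and Ret was 6.33-fold lower in axons, or -2.66 ± 0.47 on the log2 scale (SE, n = 4, adjusted p = 0.00171, edgeR). Its Hnrnpr-/- levels were 133, 81.1, 73.9 and 84.2 CPM in somata and 66.5, 18.5, 1.59 and 8.35 CPM in axons. The ranges did not overlap, but axonal replicate 1 reached nearly the lowest somatodendritic level. The log2 fold change of -1.97 ± 0.88 did not pass the test (SE, n = 4, adjusted p = 0.0889, edgeR). With the replicate number as a block it was -2.89 with an adjusted p of 0.0200, and without axonal replicate 1 it was -3.30 with an adjusted p of 0.00542.

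Gfra1, which encodes the GDNF-binding subunit, lies on chromosome 19 at 58224013 to 58444382 on the minus strand and fell in axons of both genotypes. Its +/+ levels were 163, 186, 138 and 218 CPM in somata and 54.8, 26.4, 7.60 and 39.95 CPM in axons. The log2 fold change was -2.45 ± 0.50 (SE, n = 4, adjusted p = 0.00317, edgeR), a 5.47-fold decrease. The corresponding Hnrnpr-/- levels were 163, 143, 134 and 148 CPM in somata and 34.99, 55.3, 10.5 and 41.2 CPM in axons. No groups overlapped, axonal replicate 3 was the lowest in both genotypes, and the log2 fold change was -2.05 ± 0.42 (SE, n = 4, adjusted p = 0.00519, edgeR). GENCODE M39 places Gm16277 and Gm41876 on the opposite strand, with 1048 and 392 shared exon bases. The count table also places Gm46650 on the same strand and Gm10007 on the opposite strand as overlapping Gfra1, and reads on several genes were counted as fractions.

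Cntfr, encoding the CNTF-binding subunit, lies on chromosome 4 at 41657498 to 41697091 on the minus strand. In +/+ motoneurons it had 70.1, 59.8, 60.4 and 42.1 CPM in somata and 11.3, 17.1, 4.55 and 9.51 CPM in axons. All axonal values were well below the lowest somatodendritic one, and Cntfr was 5.47-fold lower in axons, or -2.45 ± 0.37 on the log2 scale (SE, n = 4, adjusted p = 0.000869, edgeR). Its levels in Hnrnpr-/- motoneurons were 65.9, 61.6, 57.9 and 54.6 CPM in somata and 11.1, 15.1, 4.92 and 7.46 CPM in axons. The decrease was 6.22-fold, with a log2 fold change of -2.64 ± 0.33 (SE, n = 4, adjusted p = 0.00116, edgeR).

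Lifr, encoding a signalling partner of the CNTF receptor, lies on chromosome 15 at 7120091 to 7226970 on the plus strand and did not share this decrease. In +/+ motoneurons it had 30.2, 31.1, 28.0 and 26.7 CPM in somata and 25.5, 87.7, 13.2 and 23.2 CPM in axons. Axonal replicate 2 was above every other library, while the remaining axonal libraries were below the lowest somatodendritic value. The log2 fold change was 0.37 ± 0.50 (SE, n = 4, adjusted p = 0.559, edgeR), and -0.49 without this replicate. The same library had the highest motoneuron marker sum of all axonal libraries, 16.4 CPM, and the lowest sum of muscle and pericyte markers, 1397 CPM, and their part in the Lifr value was not tested. In Hnrnpr-/- motoneurons Lifr had 29.8, 34.2, 33.0 and 33.0 CPM in somata and 28.4, 28.8, 11.9 and 28.2 CPM in axons. These groups did not overlap, and the log2 fold change was -0.42 ± 0.27 (SE, n = 4, adjusted p = 0.220, edgeR). Exons of Lifr share 1530 bases with Gm62219 on the opposite strand.

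**Figure D2:**
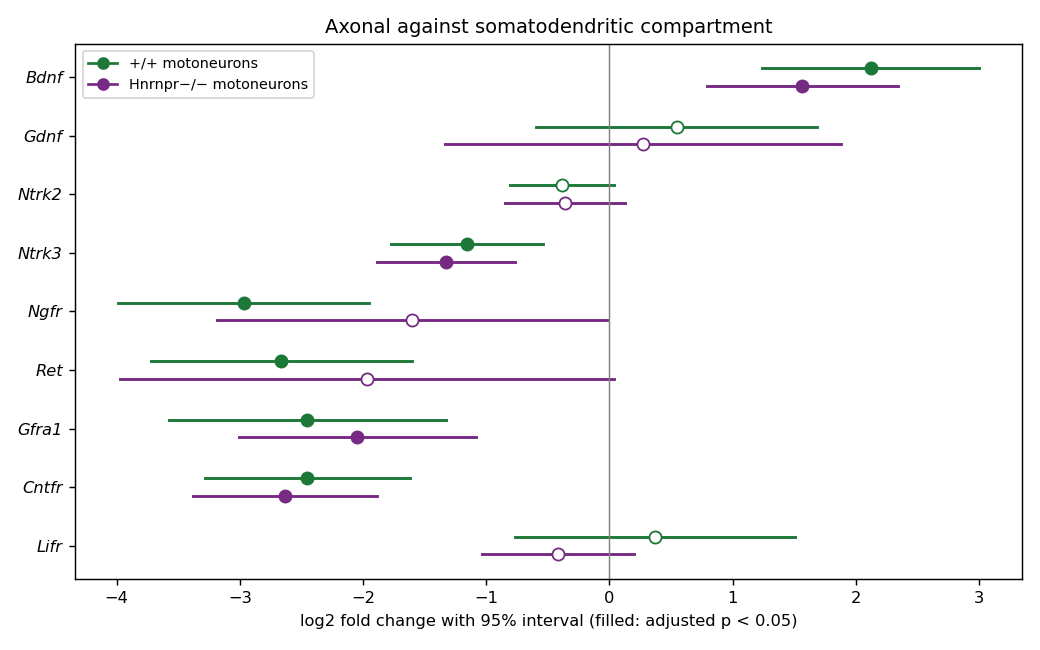
Log2 fold changes of axonal against somatodendritic libraries with 95% intervals from edgeR (n = 4 per group), in +/+ (green) and Hnrnpr-/- (purple) motoneurons, with filled points at an adjusted p under 0.05. Bdnf lies to the right of 0 in both genotypes, Ntrk3, Gfra1 and Cntfr lie to the left, and the intervals of Ntrk2, Gdnf and Lifr include 0.

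Partners within a pathway were then compared within each library, as ratios of their counts, so that the scaling of libraries does not enter. These 5 ratios were chosen after the data had been seen, and 20 exact two-sided permutation tests were made with 4 against 4 libraries, for which the smallest possible p is 0.0286. After adjustment over the 20 tests the smallest value was 0.0952, and no ratio passed. An adjusted p under 0.05 would have needed most of the 20 tests at the smallest possible p. The adjustment therefore cannot decide, and the exact p-values of the ratios are given as description only. For Lifr to Cntfr the log2 ratio of counts was above 0 in every axonal library and was below 0 in every somatodendritic one. In +/+ libraries it was 1.59 ± 0.54 in axons and -0.98 ± 0.24 in somata (SD, n = 4), a 5.94-fold difference (exact permutation p = 0.0286). In Hnrnpr-/- libraries it was 1.37 ± 0.41 and -0.88 ± 0.18 (SD, n = 4), a 4.77-fold difference with the same exact p. The sign holds for counts only, since the exons of Lifr are longer. Per kb, Lifr was lower than Cntfr in Hnrnpr-/- axonal replicate 2, with 2.68 against 2.98 CPM per kb.

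Between the Trk receptor genes, the ratio of Ntrk2 to Ntrk3 was 1.78-fold higher in +/+ and 1.96-fold higher in Hnrnpr-/- axons than in somata (exact permutation p = 0.0286 in each). For Ngfr to Ntrk2 the ratio was 6.80-fold lower in +/+ axons (exact permutation p = 0.0286) and 3.29-fold lower in Hnrnpr-/- axons (exact permutation p = 0.114), and 5.32-fold lower there without axonal replicate 4. The ratio of the ligand Bdnf to its receptor Ntrk2 was 5.08-fold higher in +/+ axons (exact permutation p = 0.0286) and 3.77-fold higher in Hnrnpr-/- axons (exact permutation p = 0.0571). By contrast, the log2 ratio of Ret to Gfra1 was -1.11 ± 0.76 in +/+ axons and -0.91 ± 0.35 in +/+ somata (SD, n = 4), with overlapping ranges and an exact permutation p of 0.714. In Hnrnpr-/- libraries it was -1.42 ± 1.63 in axons and -0.69 ± 0.27 in somata (SD, n = 4). That was 1.65-fold lower in axons (exact permutation p = 0.4), and 2.84-fold lower without axonal replicate 1.

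**Figure D3:**
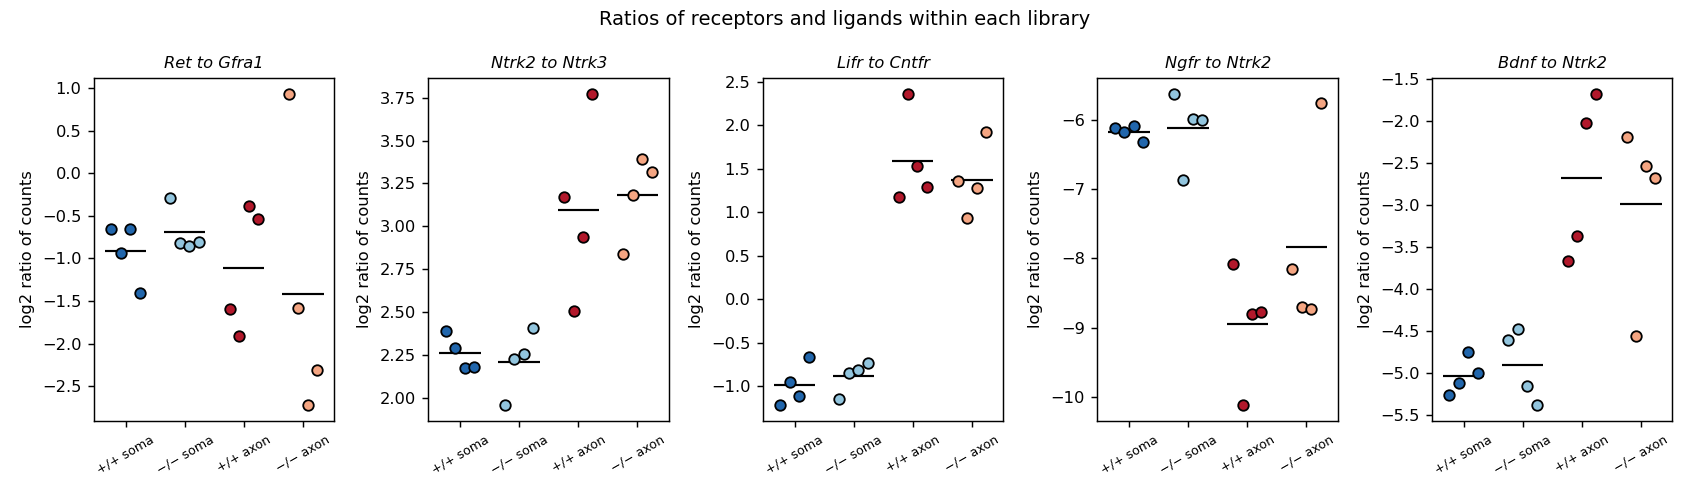
Log2 ratios of counts within each library for 5 gene pairs, with points for the 4 libraries of each group and lines at their means. The Lifr to Cntfr ratio, not corrected for gene length, is above 0 in all axonal and below 0 in all somatodendritic libraries, whereas Ret to Gfra1 overlaps between the compartments.

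Axonal libraries of the same genotype differed, and 5 of the 9 genes, Ntrk2, Gfra1, Ret, Cntfr and Lifr, were lowest in axonal replicate 3 of both genotypes. These were the libraries with the highest sums of muscle and pericyte markers, 11698 CPM in +/+ and 10427 CPM in Hnrnpr-/-, against 1397 to 4924 CPM in the other axonal libraries. Over the 8 axonal libraries, which share scaling and preparation, the log2 level of Cntfr had a Pearson r of -0.954 and a Spearman rho of -0.952 with the log2 sum of these markers. For Lifr r was -0.895 and rho -0.952, and for Ntrk3 r was -0.860 and rho -0.905. Without replicate 3 of both genotypes, r over the remaining 6 libraries was -0.832 for Cntfr, -0.799 for Lifr and -0.956 for Ntrk3. For Gfra1 it went from -0.768 to 0.37 and therefore rested on these 2 libraries. Bdnf was at intermediate levels in them, with 50.1 and 39.8 CPM, and had r = 0.41 over the 8 libraries and 0.665 without them. Ntrk2, with r from -0.719 to -0.205, and Ret, from -0.523 to 0.28, also lost the relation without replicate 3. Other marker lists had correlations of like size over the same 8 libraries. Lifr had r = 0.934 and Cntfr 0.823 with the motoneuron markers, Ntrk3 had 0.870 with those of astrocytes and radial glia, and Ret had -0.790 with those of Schwann cells. The motoneuron sums were low, at 2.85 to 16.4 CPM, and +/+ axonal replicate 2 had the highest sum and the highest Lifr and Cntfr levels. These correlations were not computed without it. Bdnf had r = -0.778 with oligodendroglia, -0.710 with astrocyte and radial glia and 0.704 with fibroblast or meningeal markers. No list can therefore be singled out from these values. The same 6 genes in +/+ and the same 4 genes in Hnrnpr-/- motoneurons passed the compartment test when both libraries were left out.

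**Figure D4:**
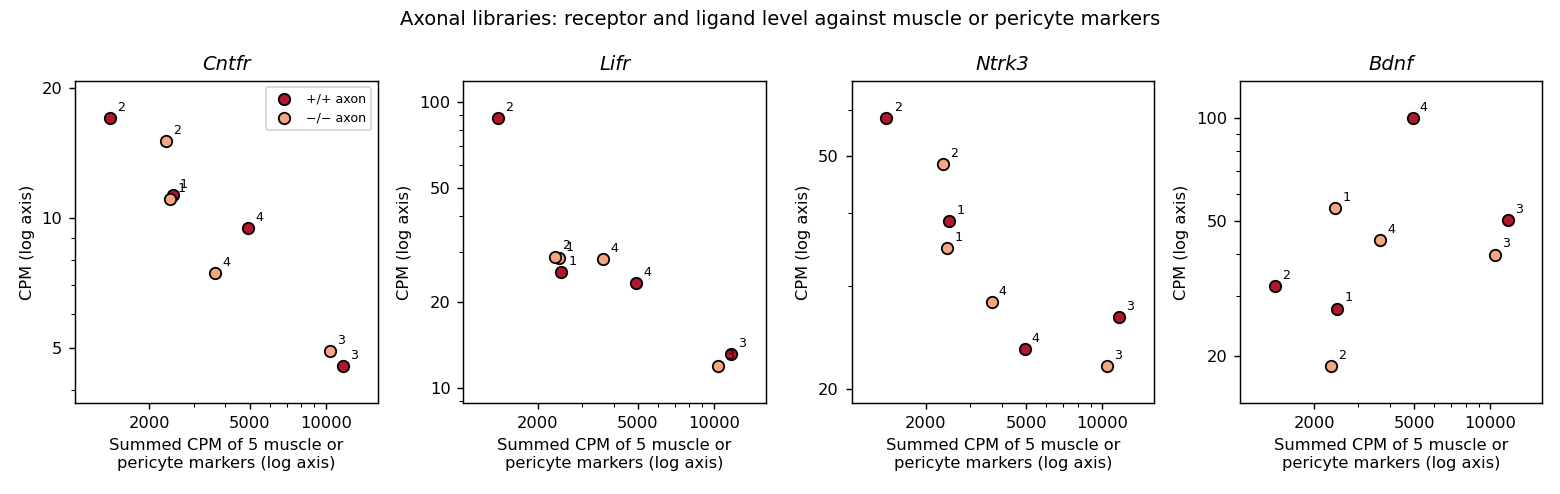
Level of Cntfr, Lifr, Ntrk3 and Bdnf (CPM, log axis) against the summed CPM of 5 muscle and pericyte markers (log axis) in the 4 +/+ and 4 Hnrnpr-/- axonal libraries, labelled by replicate number. Replicate 3 of both genotypes lies at the right, with the lowest Cntfr and Lifr levels, while Bdnf there is intermediate. The marker sums mainly follow Acta2.

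Of the marker lists, that of muscle and pericytes had 4 of 5 genes higher in axons of either genotype (Acta2, Cspg4, Myl9 and Tagln), and that of astrocytes and radial glia had 4 of 7 higher in +/+ and 1 of 7 in Hnrnpr-/- axons. Schwann cell, oligodendroglia and fibroblast or meningeal lists each had 1 gene higher in axons of either genotype, of 5, 6 and 6 tested, beside 27.7% of all genes in +/+ and 26.8% in Hnrnpr-/- motoneurons. The motoneuron list had 2 of 5 tested genes lower in +/+ axons, Chat and Slc18a3, and 3 of 5 lower in Hnrnpr-/- axons, where 25.8% and 26.0% of all genes were lower. Among 3 endothelial genes 1 was higher and 2 lower in +/+ axons, and among 3 sensory neuron genes 1 was higher and 1 lower. Of 6 microglial genes none passed with edgeR in either genotype, nor at an unadjusted p under 0.05 (count 0). Of all genes 59.4% in +/+ and 59.3% in Hnrnpr-/- motoneurons had such an unadjusted p. Schwann cell markers summed to 17.0 to 45.9 CPM in somata and 67.7 to 338 CPM in axons over both genotypes, of which Pmp22 alone had means of 14.3 and 121 CPM in +/+ and 19.3 and 190 CPM in Hnrnpr-/- libraries, and fibroblast or meningeal markers to 60.5 to 1233 and 128 to 2006 CPM. Their part in the level of Bdnf and the other genes in axonal libraries was not tested.

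The wider pathway lists held 141 genes, of which 135 were tested. In +/+ motoneurons 37 of them (27.4%) were higher and 42 (31.1%) lower in axons, near the shares over all genes of 27.7% and 25.8%. Hnrnpr-/- motoneurons had 35 (25.9%) higher and 43 (31.9%) lower, against 26.8% and 26.0% of all genes. Of 12 further neurotrophin ligands and receptors, 2 were higher and 9 lower in +/+ axons. Among the direct partners Sort1, the coreceptor of p75NTR for neurotrophin precursors, fell by 1.804 ± 0.23 on the log2 scale (SE, n = 4, adjusted p = 0.000477, edgeR). Ntf3, the TrkC ligand, had means of 1.65 CPM in somata and 0.826 CPM in axons and did not pass (adjusted p = 0.211, edgeR). Kidins220, a scaffold of Trk receptors, fell by 2.55 ± 0.27, as did Rtn4r, the Nogo receptor and partner of p75NTR, by 2.55 ± 0.40, and Bex3, a p75NTR-binding protein, rose by 0.90 ± 0.29 (edgeR, SE).

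In the CNTF and LIF list, 8 of 20 tested genes were higher and 2 lower in +/+ axons, against 27.7% of all genes higher and 25.8% lower. Clcf1, which encodes a cytokine ligand of the CNTF receptor, passed with a higher level in axons (adjusted p = 0.000816, edgeR), but had only 16.3 counts in all 4 +/+ somatodendritic libraries, 0.0469 to 0.290 CPM, against 2.25 to 19.6 CPM in axons. Lif and Cntf also passed, with 23 and 20.5 counts in all 4 somatodendritic libraries and means of 4.58 and 1.21 CPM in axons. These 3 genes were near the floor in somata, so no fold change is given for them. Il6st, the gene of the shared subunit gp130, had means of 133 CPM in somata and 126 CPM in axons, which did not differ beyond the replicate spread (log2 fold change -0.08, 95% interval -0.68 to 0.52, adjusted p = 0.812, edgeR). Jak2 and Jak1, kinases bound to gp130, had log2 fold changes of -1.15 ± 0.17 and -1.03 ± 0.26.

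Of 8 tested genes in the list around the GDNF family, 3 were higher, the ligand genes Nrtn, Artn and Gdf15, and 3 lower in +/+ axons. For this list and those that follow, the shares over all genes were 27.7% higher and 25.8% lower. Nrtn had a log2 fold change of 3.97 ± 0.71 and Gdf15 of 3.14 ± 0.84, whereas the receptor genes Gfra2 (-2.88 ± 0.21) and Sdc3 (-2.06 ± 0.26) fell. Gdf15 was low in somata, with 95 counts in all 4 +/+ somatodendritic libraries and a minimum of 0.141 CPM. Of 38 shared adaptors and kinases, 5 were higher, such as Shc1 at 3.57 ± 0.56 and Rap1b at 0.92 ± 0.24, and 20 were lower, such as Shc2 at -1.72 ± 0.34 and Pik3r1 at -1.62 ± 0.21. Of 20 other survival factors and receptors 6 were higher and 1 lower, with Flt1, a VEGF receptor, at 4.70 ± 0.91, the growth factor midkine (Mdk) at 3.43 ± 0.23 and its receptor Alk at -3.56 ± 0.56. Of 9 genes of neurotrophin processing 4 were higher and 3 lower, with Mmp2 at 3.86 ± 0.82, Serpini1 at -2.08 ± 0.54 and Mmp9 at -2.89 ± 0.44. Of 16 response genes 6 were higher and 1 lower, with the MAP kinase phosphatases Dusp5 at 2.996 ± 0.65 and Dusp6 at 2.701 ± 0.33, and Homer1 at -1.52 ± 0.23. Of 12 trafficking genes 3 were higher and 3 lower, with Ehd4 at 2.00 ± 0.48, Gipc1 at 1.28 ± 0.20, Nedd4l at -0.69 ± 0.15 and Dpysl2 at -2.32 ± 0.24. All of these are log2 fold changes with SE from edgeR at an adjusted p under 0.05.

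For Hnrnpr-/- motoneurons the receptor and ligand lists are given beside these. Of the neurotrophin list 2 genes were higher and 8 lower in axons, of the GDNF family 3 were higher and 3 lower, and of the CNTF and LIF list 7 were higher and 2 lower (edgeR), out of 12, 8 and 20 tested, against 26.8% of all genes higher and 26.0% lower. Il6st again did not pass, with means of 141 CPM in somata and 154 CPM in axons (adjusted p = 0.540, edgeR).

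The second question was whether loss of hnRNP R altered these transcripts. No gene among the 9 passed the test between genotypes in either compartment (edgeR), where 0.00501% of all genes passed in each, that is Hnrnpr itself. At an unadjusted p under 0.05 the count was also 0 of the 9 in either compartment, against 2.75% of all genes in somata and 0.862% in axons. DESeq2 and limma-voom also called 0 of the 9. In somata the smallest unadjusted p was that of Gfra1, with means of 147 CPM in Hnrnpr-/- and 176 CPM in +/+ libraries, overlapping ranges and a log2 fold change of -0.26 (95% interval -0.57 to 0.05, edgeR, adjusted p = 0.998). The interval was narrow for Ntrk2, from -0.21 to 0.16, for Ntrk3, from -0.21 to 0.27, and for Cntfr, from -0.28 to 0.37. Ret had an interval of -0.39 to 0.40, Lifr of -0.06 to 0.39, Bdnf of -0.31 to 0.58 and Ngfr of -0.45 to 0.64. Gdnf could be judged least, with a log2 fold change of -0.76 and an interval of -1.88 to 0.36.

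In axons the intervals were wider. Ngfr had the largest difference with all libraries, 1.46 ± 0.81 (SE, n = 4, 95% interval -0.37 to 3.29, adjusted p = 1, edgeR), with means of 1.92 CPM in Hnrnpr-/- and 0.695 CPM in +/+ axons, and replicate 4 of Hnrnpr-/- gave the only value above the +/+ range. Without that library the Ngfr difference was 0.24. Gdnf had a log2 fold change of -1.04 (95% interval -2.61 to 0.53) and Bdnf of -0.42 (-1.46 to 0.63). For Ret it was 0.70 (-1.47 to 2.87), and -0.62 without Hnrnpr-/- replicate 1. For Lifr it was -0.62 (-1.92 to 0.68), and 0.24 without +/+ replicate 2. The remaining receptors had intervals of -0.61 to 0.60 for Ntrk2, -0.94 to 0.66 for Ntrk3, -1.26 to 1.54 for Gfra1 and -1.19 to 0.92 for Cntfr. Changes of up to about these sizes are not excluded at this replicate spread. The interval ends are not limits of detection, since a call also had to pass the adjustment over all genes tested.

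**Figure D5:**
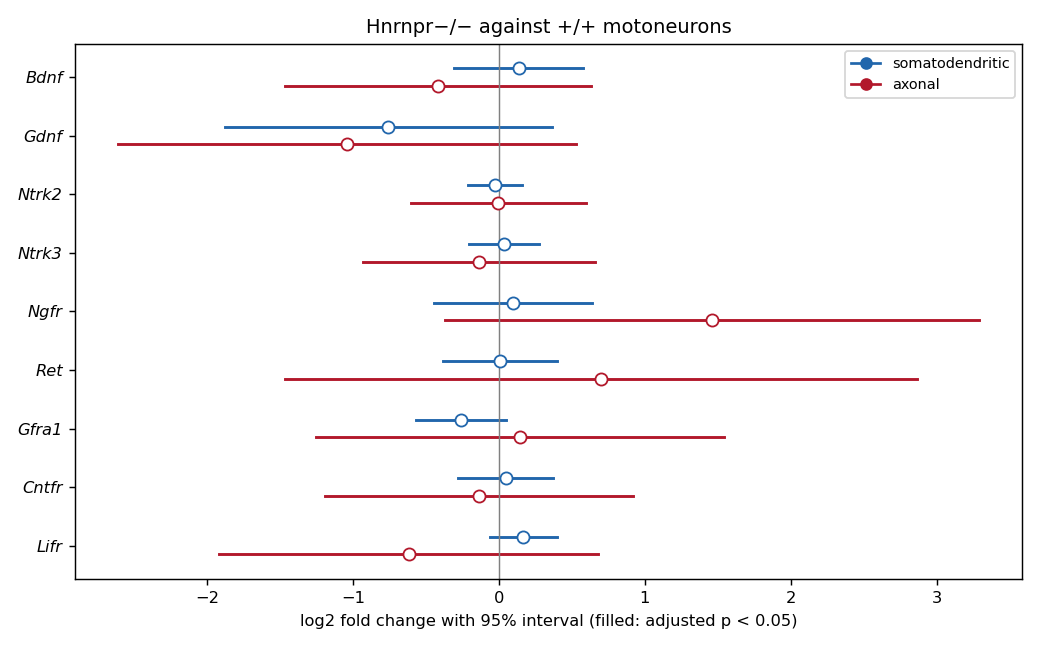
Log2 fold changes of Hnrnpr-/- against +/+ libraries with 95% intervals from edgeR (n = 4 per group), in the somatodendritic (blue) and axonal (red) compartment. All 18 intervals include 0, and those of axons are wider than those of somata.

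Ngfr and Ret passed the compartment test in +/+ but not in Hnrnpr-/- motoneurons, and the difference between the genotypes was tested itself. The interaction was 1.37 ± 0.85 on the log2 scale for Ngfr (95% interval -0.44 to 3.18, and 0.16 without Hnrnpr-/- axonal replicate 4) and 0.69 ± 1.04 for Ret (-1.51 to 2.90, and -0.63 without Hnrnpr-/- axonal replicate 1), and neither passed the test (edgeR, adjusted p = 1 for each). None of the 9 genes passed this test (edgeR), as 0% of all genes did, and 0 of the 9 had an unadjusted p under 0.05, against 1.33% of all genes. With DESeq2 the count was also 0. In the pathway lists 0 of 135 genes passed between genotypes in either compartment, where 0.00501% of all genes passed in each. At an unadjusted p under 0.05 there were 3 in somata and 0 in axons, against 2.75% and 0.862% of all genes.

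Genes with the most similar course were sought among 11587 genes, by the smaller of 2 Pearson correlations of log2(CPM + 1), over the 8 somatodendritic and the 8 axonal libraries. As a description over few libraries that share scaling and preparation, it gave Ncan (0.783), Anks1b (0.781) and Pcdhga8 (0.769) for Ntrk2. For Ntrk3 it gave Hmgcs1 (0.896) and Dtna (0.890), and for Ngfr it gave Adcy7 (0.793), Sema4d (0.783) and Agrn (0.773). Gfra1 was followed by Vat1l (0.882), Chst10 (0.869) and Ptprr (0.864), and Ret by Ss18l1 (0.934), Dennd4b (0.911) and Camsap3 (0.910). For Cntfr the genes were Cers1 (0.898) and Gdf1 (0.897), which are annotated at the same locus, and Myo6 (0.893). For Lifr they were Hsdl2 (0.844), Abhd3 (0.836) and Gm8508 (0.832), and for Bdnf they were Slc9a3r2 (0.744), Mical2 (0.739) and Ndel1 (0.721). Ret had 253 genes above 0.8, whereas Bdnf, Ntrk2 and Ngfr had 0. The highest Ret levels of both compartments were in Hnrnpr-/- replicate 1, with 133 CPM in somata and 66.5 CPM in axons. The part of these libraries in the count for Ret was not tested. Gdnf was too low for this comparison.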

How the data were processed

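RNA from both compartments was amplified with SMART-Seq v4. Per the labels and the study's methods, the authors aligned reads with STAR 2.7.2b to GRCm39 and counted them on RefSeq exons with featureCounts 1.6.4 in the reverse-stranded setting. The deposited values are fractional alignment counts per gene without normalization, treated here like expected counts because they need not be whole, though no model estimated them. They were rounded for CPM and for every fit except an alternative with unrounded counts, while counts in the text are as deposited. edgeR 4.0.16 in R 4.3.3 was used with TMM factors and a filter over all 16 libraries, and a quasi-likelihood fit over the 8 libraries compared (16 for the interaction). CPM are scaled by TMM factors. The threshold was an adjusted p of 0.05. Intervals from edgeR are 95% intervals. The study describes the 4 libraries of each group as biological replicates, and the labels do not say which animals or cultures they came from. None of 120 library pairs were identical. Depth sets a floor of 3 counts, which covers counting error only.

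The members and lists were chosen with earlier results of these data known. All members were named, and from each pathway list up to 2 risen and 2 fallen genes of at least 5 CPM, plus direct partners; some of the genes this rule names are not reported here. Titles share replicate numbers. Deviations of same-numbered Hnrnpr-/- libraries correlated between compartments with r from 0.129 to 0.601, all above 0.1, so the blocked value is given where it changed a call. In +/+ libraries r was 0.0627 to 0.342 and did not meet this rule. Alternatives were other filters and scalings, unrounded counts, protein-coding genes only, DESeq2 1.42.0 and limma-voom (limma 3.58.1). Further ones were 1 model over all libraries, the block, exact permutation tests and omission of each library. Omission of axonal replicate 3 of both genotypes, the gene ratios and their omission of single libraries were added after the data had been seen. Scripts were tested on simulated data.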

Additional observations from a re-analysis of the deposited data

Results flagged for a closer look

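For each of the 9 genes in each of the 4 groups, 36 sets of 4 libraries in all, the highest and lowest library was compared with the rest by Dixon's criterion, which chance meets in about 1 in 20 sets. It was met by 2 values. Lifr in Hnrnpr-/- axonal replicate 3 was far below the other 3 libraries of its group, with 11.9 CPM against 28.2 to 28.8 CPM. Ntrk2 in +/+ axonal replicate 3 was far below the other 3 libraries of its group, with 204 CPM against 320.1 to 349 CPM. Both libraries had the highest sums of muscle and pericyte markers of their group, 10427 and 11698 CPM, and the part of these in the low values was not tested.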

How the results depend on the processing

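The 6 genes called between compartments in +/+ motoneurons passed with the same sign under every alternative and without any single library. In Hnrnpr-/- motoneurons the count was 4 to 7 (4 to 5 without single libraries), and the 4 called genes passed throughout. limma-voom with group weights gave 7, adding Ngfr (-2.14), Ret (-2.98) and Ntrk2 (-0.41). Ngfr also passed there with DESeq2 (adjusted p = 0.0441). In the edgeR model over all libraries both Ngfr (adjusted p = 0.036) and Ret (adjusted p = 0.0387) passed. With the replicate block the counts were 6 and 6 between compartments and 0 in the genotype tests, and apart from Ngfr and Ret in Hnrnpr-/- motoneurons the block changed no call. Same-numbered libraries correlated best with each other in 4 of 4 pairs between compartments in +/+, in 3 of 4 in Hnrnpr-/-, in 2 of 4 between genotypes in axons and in 1 of 4 in somata. By exact permutation, Ntrk2 between +/+ compartments and Ret and Lifr between Hnrnpr-/- compartments also reached an unadjusted p of 0.0286, the smallest 4 against 4 libraries can give. Library totals without TMM factors moved the median of all genes between +/+ compartments from 0.07 to 0.22.

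Sign changes concerned only values that had not passed. In log2 fold change, Lifr between +/+ compartments was -0.0235 with the replicate block, and Gdnf between Hnrnpr-/- compartments was -0.0550 with limma-voom. Between genotypes in somata, Ntrk2 was 0.0013 without TMM factors, and Ret was -0.028 with limma-voom, -0.025 with the block and -0.025 as a difference of log2(CPM + 1). Between genotypes in axons, Ntrk2 was 0.0200 without a filter and 0.00011 under the stricter filter of 10 counts, and Ret was -0.0523 with limma-voom and -0.0513 with the block. In the interaction, Ntrk2 was -0.0021 without TMM factors and -0.0125 without axonal replicate 3 of both genotypes, and Ret was -0.0245 with limma-voom. Their causes were not tested.

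Leaving out each library gave sign changes within these ranges. Between compartments they were -0.49 to 0.69 for Lifr in +/+ and -0.18 to 0.65 for Gdnf in Hnrnpr-/-. Between genotypes in axons they were -0.63 to 0.11 for Bdnf, -0.44 to 0.19 for Cntfr, -0.18 to 0.53 for Gfra1, -0.89 to 0.24 for Lifr, -0.25 to 0.11 for Ntrk2, -0.38 to 0.17 for Ntrk3 and -0.62 to 1.204 for Ret. In somata they were -0.0652 to 0.16 for Cntfr, -0.0725 to 0.31 for Ngfr, -0.0449 to 0.0201 for Ntrk2, -0.0539 to 0.0779 for Ntrk3 and -0.21 to 0.10 for Ret. In the interaction they were -0.49 to 0.14 for Cntfr, -0.72 to 0.0876 for Gdnf, -1.07 to 0.0720 for Lifr, -0.22 to 0.12 for Ntrk2, -0.41 to 0.14 for Ntrk3 and -0.63 to 1.18 for Ret. Over all genes, the genotype test in axons called 2 genes in the model over all libraries and 0 without Hnrnpr-/- axonal replicate 2 or without both axonal replicates 3, against 1, and DESeq2 called 1 in the interaction against 0.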
